A study of Mus musculus with 2 samples.

Results

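The expression of 10 genes of the pigment cell and of its support by keratinocytes, the cells that form most of the epidermis, was followed in keratinocyte cultures from mouse tails. They are 5 melanosome markers (Pmel, Tyrp1, Dct, Tyr and Mlana), 1 transcription factor with 2 receptors (Mitf, Kit and Ednrb), and 2 ligands that keratinocytes make (Kitl and Edn1). The members were chosen by name, in a proposal made with the read counts of these same libraries in view, so their values are a description and no test was made of them. All 10 were found among the 47719 genes listed, and 7 of them were expressed, meaning that they reached at least 1 CPM (reads per 1000000, on scaled library sizes) in a library. Of all genes listed, 12325 were expressed.

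The data are 1 library of Pp6fl/fl cells and 1 library of K5.Pp6fl/fl cells, both on the C57BL/6J background, a black-coated strain, from mice aged 8 weeks. In Pp6fl/fl mice both copies of the gene for the catalytic subunit of protein phosphatase 6, Ppp6c, carry recombination sites. As the genotype's name is usually read, K5.Pp6fl/fl mice also carry a recombinase under the promoter of keratin 5, a basal keratinocyte gene, which deletes Ppp6c there, so the deletion is aimed at keratinocytes. Tail keratinocytes were kept in Medium 154CF for 3 days before polyadenylated RNA was sequenced. The labels do not say how many mice gave each culture, or whether pigment cells were removed. With 1 library a genotype there is no spread between replicates. Every interval below is a 95% interval of counting error alone, and since reads carry no molecular identifier, several can come from 1 molecule.

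The libraries held 19374767 (Pp6fl/fl) and 17361260 (K5.Pp6fl/fl) estimated reads in genes. Ppp6c stood at 55.5 CPM in Pp6fl/fl and 40.7 CPM in K5.Pp6fl/fl, a fold of 0.733 (0.666 to 0.807). By FPKM it stood at 30.6 and 16.8, a fold of 0.548. The gene total does not resolve the deleted part. Of the 15 keratinocyte identity genes 15 were expressed, with a median log2 ratio of -0.02 and a range from -0.37 (Trp63) to 0.88 (Epcam). Of them 0 were 2-fold apart. An interval above 1 was found for 7 and below for 7, against 16.6% and 17.4% of all expressed genes. Intervals narrow as reads increase, and that of Krt6a, 0.985 to 0.993, counts as below 1. The shares over all expressed genes, here and further on, include rare genes and are not matched in depth. Epcam had 1306 and 2164 reads, a fold of 1.84 (1.72 to 1.98). Trp63 had 19278 and 13434 reads, a fold of 0.776 (0.759 to 0.793). Krt14 stood at 30699 and 28561 CPM and Krt6a at 24794 and 24529 CPM. In this bulk RNA a smaller number of cells of a type and less RNA per cell cannot be told apart.

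Melanocytes are the pigment cells of skin. They make melanin inside an organelle, the melanosome, and hand it to neighbouring keratinocytes. Tyrosinase (Tyr) carries out the first and rate-limiting step, Tyrp1 and dopachrome tautomerase (Dct) act later on the same path, Pmel forms the fibrils on which melanin is laid down, and Mlana takes part in melanosome maturation. Mitf is the transcription factor that drives these genes. Keratinocytes in turn sustain melanocytes with stem cell factor, the product of Kitl, which binds the receptor Kit, and with endothelins such as the product of Edn1, which bind the receptor Ednrb.

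The promoters of the tyrosinase family are shown because Mitf is known to bind an element there, the M-box, with the core CATGTG. RefSeq windows (GRCm38.p6) of 250 bases before and 50 after the transcription start were at hand for 8 of the 10 members, all but Pmel and Mlana. The longest stretch that the windows of Tyr, Tyrp1 and Dct share is 10 bases long and holds that core. It is set in capitals below, in 30 bases of each promoter, 5′ to 3′ on the strand of the gene. The last line shows 1 of the 3 Mitf windows, with a cyclic AMP response element (TGACGTCA) in capitals, the element through which the melanocyte promoter of Mitf is known to answer hormone signals.
Tyr: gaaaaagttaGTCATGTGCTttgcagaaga
Tyrp1: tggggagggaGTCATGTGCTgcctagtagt
Dct: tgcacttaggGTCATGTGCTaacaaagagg
Mitf: gaaaaaaagcaTGACGTCAagccagcaggg
These lie at chr7:87493516-87493545 (minus strand), chr4:80834155-80834184 (plus strand), chr14:118052379-118052408 (minus strand) and chr6:97991619-97991648 (plus strand).

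Counted with -1 as the base before the start, the shared stretch begins at -23 in Tyr, -48 in Tyrp1 and -152 in Dct. On either strand the stretch GTCATGTGCT was found in 61 of 32851 windows (0.186%), and the shorter CATGTG, which it contains, in 14.2%. Dct held a further match to the core on the other strand at -232. No window of Mitf, Kit, Ednrb, Kitl or Edn1 held CATGTG, and none of the members' windows held the related E-box CACGTG, present in 7.15% of all windows. TGACGTCA was found in 1.79% of all windows and, among the members, only in this Mitf window, at -153. The stretch was found by comparing the windows shown, and a match is a description of letters, not a bound site.

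Pmel, Tyrp1 and Dct were the most abundant melanosome markers by reads, and all were about 2-fold higher in the K5.Pp6fl/fl library. Pmel (ENSMUSG00000025359) had 42 reads in Pp6fl/fl (exact Poisson interval 30.3 to 56.8) and 84 in K5.Pp6fl/fl (67.0 to 104.0). On scaled libraries this was 2.17 and 4.83 CPM, a fold of 2.23 (1.52 to 3.31). The intervals of its counts did not overlap. Tyrp1 (ENSMUSG00000005994) had 48 reads (35.4 to 63.6) and 86 reads (68.8 to 106.2), or 2.48 and 4.95 CPM, a fold of 1.99 (1.39 to 2.9). Dct (ENSMUSG00000022129) had 32 reads (21.9 to 45.2) and 61 reads (46.7 to 78.4), or 1.65 and 3.51 CPM, a fold of 2.12 (1.36 to 3.36). For these genes too the K5.Pp6fl/fl count lay above the interval of the Pp6fl/fl count. The remaining enzyme and Mlana rested on few reads. Tyr (ENSMUSG00000004651) had 13 and 21 reads, a fold of 1.8 whose interval (0.859 to 3.91) included 1. Mlana (ENSMUSG00000024806) had 7 and 8 reads, below the floor of 1 CPM in both libraries, with a fold of 1.27 (0.403 to 4.12). At this depth no difference in Tyr or Mlana was detectable, and their intervals also hold a 2-fold one.

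**Figure D1:**
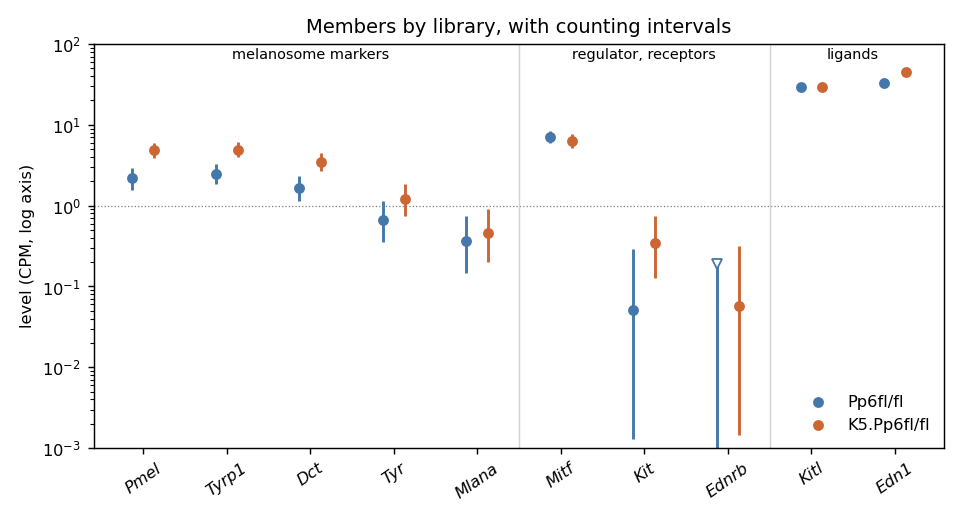
Levels of the 10 members in CPM (log axis) in the Pp6fl/fl library (blue) and the K5.Pp6fl/fl library (orange), 1 library each. Points are the measured levels, bars are 95% Poisson counting intervals, the dotted line is the floor of 1 CPM, and the open triangle is the upper bound for Ednrb, which had 0 reads in Pp6fl/fl. Pmel, Tyrp1 and Dct sit higher in orange, and Kitl is level. Mlana, Kit and Ednrb lie under the floor in both libraries, as does Tyr in Pp6fl/fl.

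Expressed genes were counted as 2-fold apart when 1 lay outside the interval and the log2 ratio, taken after adding 0.5 CPM to both values, reached 1 or -1. By this rule 0 of the 7 expressed members were 2-fold higher and 0 were 2-fold lower, against 0.811% and 0.195% of all expressed genes. Pmel missed it narrowly with a log2 ratio of 0.998, while Dct stood at 0.90, Tyrp1 at 0.87 and Tyr at 0.54. The added 0.5 CPM decides this for rare genes: with 0.1 CPM, Pmel and Dct passed. Among the 3228 expressed genes whose larger value was 1 to 10 CPM, the range that holds Mitf and the 4 expressed melanosome markers, 2.26% were 2-fold higher. The middle 95% of their log2 ratios ran from -0.71 to 0.97. Tyrp1 and Dct lay inside that range near its upper end, and Pmel just beyond it. The log2 ratio was above 0 for 6 of the 7 expressed members and below for 1, with a median of 0.54 against -0.01 over all expressed genes. For 4 of the 7 (Pmel, Tyrp1, Dct and Edn1) the interval lay above 1, and for 0 below. Of all expressed genes 16.6% had an interval above 1 and 17.4% below, and of those at 1 to 10 CPM 12.1% had one above. Since the members were proposed with these counts in view, nothing is read from these shares.

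**Figure D2:**
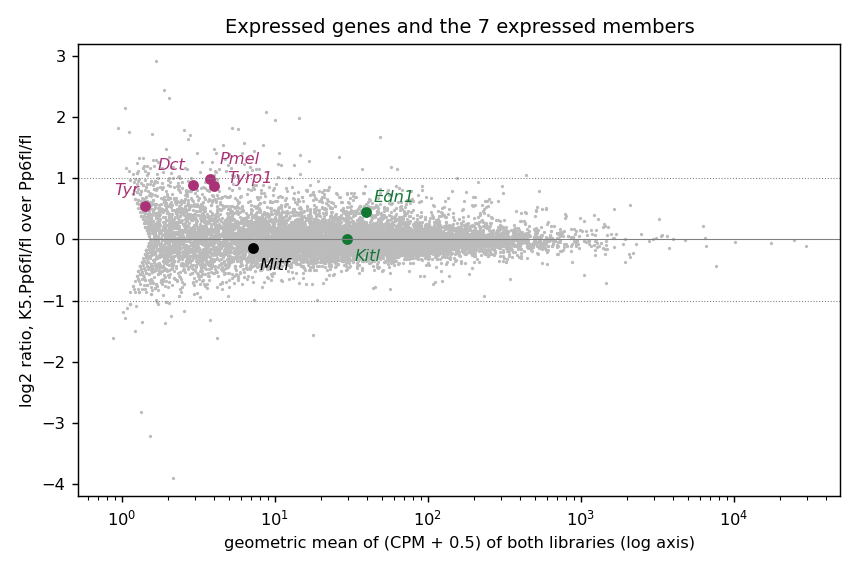
Log2 ratio (K5.Pp6fl/fl over Pp6fl/fl, 0.5 CPM added) against the geometric mean of the raised levels in both libraries (log axis). The 12325 expressed genes are in grey, and the 7 expressed members are larger, named points, with Mitf in black. Dotted lines mark 2-fold differences. The melanosome markers (purple) lie in the upper part of the wide cloud of rare genes, and Edn1 (green) stands at 0.44 where the cloud is narrow. The value of Edn1 is inside the middle range of all expressed genes, -0.47 to 0.69.

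Summed over the 5 melanosome markers there were 142 reads in Pp6fl/fl (120 to 167) and 260 in K5.Pp6fl/fl (229 to 294). These are 7.34 and 15.0 CPM, a fold of 2.04 (1.66 to 2.52). The pigment reads were a trace of each library. Per 1000000 reads of Krt5 and Krt14 there were 151 pigment marker reads in Pp6fl/fl and 328 in K5.Pp6fl/fl, a fold of 2.16 (1.76 to 2.68). No number of pigment cells follows from this, because the markers' level in a single pigment cell was not measured.

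The make-up of the pigment reads was alike in the libraries within counting error. Tyrp1 gave 33.8% of them in Pp6fl/fl (exact binomial interval 26.1 to 42.2%) and 33.1% in K5.Pp6fl/fl (27.4 to 39.2%). Pmel gave 29.6% (22.2 to 37.8%) and 32.3% (26.7 to 38.4%), and Dct 22.5% (16.0 to 30.3%) and 23.5% (18.4 to 29.1%). Tyr gave 9.15% and 8.08%, and Mlana 4.93% and 3.08%. Each marker's interval in 1 library contained its share in the other. Intervals as wide as these would also hold moderate shifts in make-up.

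**Figure D3:**
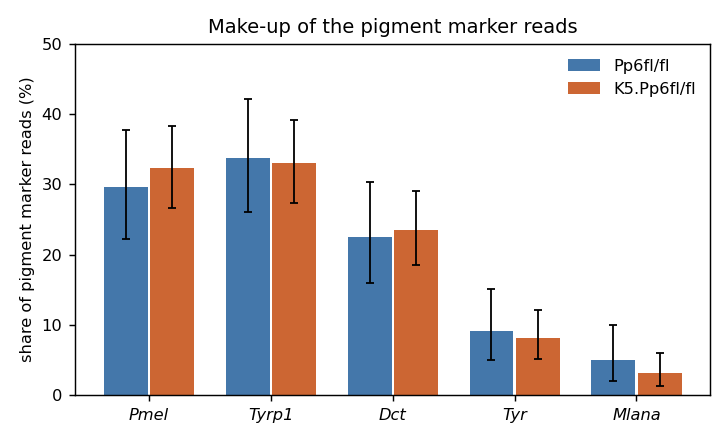
Share of the summed melanosome marker reads taken by each of the 5 markers, in percent, in the Pp6fl/fl library (blue, 142 reads) and the K5.Pp6fl/fl library (orange, 260 reads). Error bars are exact 95% binomial intervals, and the pairs of bars overlap for every marker.

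Per transcript length the order of the markers was less certain than by reads. By the deposited FPKM, which divides by an effective gene length, Tyrp1 was highest in Pp6fl/fl at 1.45 (1.07 to 1.93). Pmel at 1.19 (0.856 to 1.61), Mlana at 1.14 (0.459 to 2.35) and Dct at 0.844 (0.577 to 1.19) followed with overlapping counting intervals. Tyr was lowest at 0.253 (0.135 to 0.433), below the others beyond counting error. In K5.Pp6fl/fl Tyrp1 and Pmel stood at 2.67 and 2.65 FPKM, Dct at 1.8, Mlana at 1.45 and Tyr at 0.37 (0.229 to 0.565). Tyr was again lowest, and neighbours above it overlapped. Mlana, which had the fewest reads of the markers, was above Tyr here, with an effective length of 317 bases in each library against 2648 and 3273 for Tyr.

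The sizes differ somewhat between reads and FPKM. The FPKM fold of Pmel was 2.23 and that of Dct 2.13, close to their read folds. For Tyrp1 it was 1.84 and for Tyr 1.46, both below the read folds, and the effective length of each differed between the libraries (1704 and 1852 bases for Tyrp1, 2648 and 3273 for Tyr). The authors' deposited table lists log2 fold changes of 1.1 for Pmel (FDR 0.000519), 0.84 for Tyrp1 (FDR 0.00209), 1.01 for Dct (FDR 0.0083) and 0.41 for Tyr (FDR 0.356). Those FDR values also rest on 1 library a genotype. Pmel overlaps Cdk2 and Dgka on the opposite strand, and the library kit does not keep the strand, so some reads could belong to either gene. Cdk2 and Dgka had folds of 0.998 (0.903 to 1.1) and 0.998 (0.949 to 1.05). The same limit holds for Dct, Edn1 and Mitf, which overlap 4930435M08Rik, Gm47118 and the pseudogene Gm15531 on the opposite strand. Gm15531 had 0 reads in both libraries, and no reads were at hand for the antisense genes 4930435M08Rik and Gm47118.

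Mitf was not higher by value, unlike the melanosome genes. Mitf (ENSMUSG00000035158) had 136 reads in Pp6fl/fl (114 to 161) and 110 in K5.Pp6fl/fl (90.4 to 133), or 7.03 and 6.33 CPM. The interval of its fold of 0.9 ran from 0.694 to 1.17 and included 1. Read counts of the 5 melanosome markers relative to Mitf were higher in K5.Pp6fl/fl by 2.26-fold (exact conditional interval 1.62 to 3.17), a comparison added after the values were seen. Like the ratio to ligands given further on, it does not depend on how libraries are scaled. Mitf has several promoters, active in different tissues, and the table sums them, so how many of these reads came from the melanocyte promoter was not measured. At 2.49 and 2.1 FPKM it was above every melanosome marker in Pp6fl/fl by value, while in K5.Pp6fl/fl Tyrp1 and Pmel exceeded it by value.

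The receptors that receive the keratinocyte signals were hardly measured. Kit (ENSMUSG00000005672) had 1 read in Pp6fl/fl (0.0253 to 5.57) and 6 in K5.Pp6fl/fl (2.2 to 13.1), or 0.0517 and 0.345 CPM. The fold of 6.68 has an interval of 0.81 to 307, which includes 1. Its FPKM was 0.0963 and 0.0967, a fold of 1.0, since the effective length behind it was 536 bases in Pp6fl/fl and 3572 in K5.Pp6fl/fl. Reads and FPKM therefore give different pictures of Kit, and neither rests on enough reads for a comparison. Ednrb (ENSMUSG00000022122) had 0 reads in Pp6fl/fl, where a count of 0 allows up to 0.155 CPM, and 1 read in K5.Pp6fl/fl (0.0575 CPM). Its difference was not detectable at this depth. The authors' deposited table lists log2 fold changes of -0.24 for Mitf (FDR 0.74) and 0 (FDR 1) for Mlana, Kit and Ednrb.

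The ligands, in contrast to the receptors, were well covered. Kitl (ENSMUSG00000019966) had 564 reads in Pp6fl/fl (518 to 613) and 509 in K5.Pp6fl/fl (466 to 555), which scale to 29.1 and 29.3 CPM. Its fold was 1.0 (0.889 to 1.13), and the intervals of its counts overlapped. Edn1 (ENSMUSG00000021367) had 644 reads (595 to 696) and 790 reads (736 to 847), or 33.3 and 45.4 CPM. Its fold was 1.37 (1.23 to 1.52), and the intervals of its counts, which are not scaled to depth, did not overlap. An interval of the fold above 1 was found for 16.6% of all expressed genes. Taken over all expressed genes, the middle range of log2 ratios given above for rare genes ran from -0.47 to 0.69. Edn1, at 0.44, lay inside it. That range includes the rare genes, and none was taken for genes at the level of Edn1 alone. The authors' deposited table lists log2 fold changes of -0.01 for Kitl (FDR 0.975) and 0.45 for Edn1 (FDR 1.06e-05). Per length Edn1 was the most abundant member, at 16.3 and 22.3 FPKM against 6.88 and 6.85 FPKM for Kitl.

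**Figure D4:**
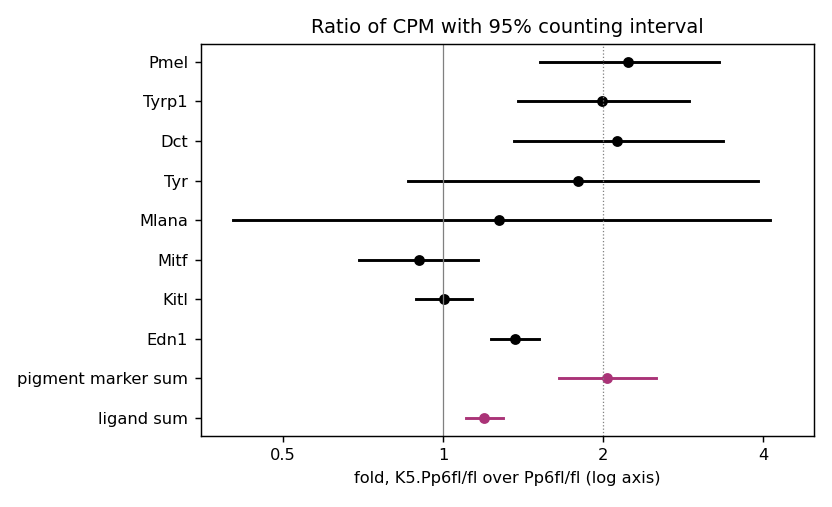
Fold between the libraries, K5.Pp6fl/fl divided by Pp6fl/fl in CPM (log axis), with exact 95% counting intervals, for 8 members and for the summed melanosome markers and summed ligands (purple). Kit (1 read against 6) and Ednrb (0 against 1) are left out. The pigment marker sum lies at 2.04, the ligand sum at 1.2, and Kitl and Mitf have intervals across 1.

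Set against each other, the pigment markers differed more between the libraries than the ligands did. The 2 ligands summed to 1208 and 1299 reads, a fold of 1.2 (1.11 to 1.3). The ratio of pigment marker reads to ligand reads was 1.7-fold higher in K5.Pp6fl/fl (exact conditional interval 1.36 to 2.14), a value that no scaling of the libraries can change. Against Kitl alone it was 2.03 (1.59 to 2.59), and against Edn1 alone 1.49 (1.18 to 1.89). Leaving out any 1 of the 5 markers gave values from 1.64 to 1.74. By FPKM the ratio was 1.46.

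Other factors that keratinocytes make for melanocytes differed in both directions. Of 20 in the list beside Kitl and Edn1, 14 were expressed, 0 were 2-fold apart, 5 had an interval above 1 and 2 below. Their median log2 ratio was 0.12, against -0.01 over all expressed genes, of which 16.6% had an interval above 1 and 17.4% below. The most abundant were Nrg1, the neuregulin that activates ERBB receptors (fold 0.959, 0.92 to 1.0), and Wnt4 (0.977, 0.933 to 1.02). Edn3, the endothelin that melanocyte precursors depend on in development, and Csf2 had 0 reads in both libraries, and Pomc, the source of melanocyte-stimulating hormone, had 1 read in each. Edn2, the remaining endothelin, had 29 and 31 reads. Among 12 genes that process or relay these factors, 10 were expressed, 0 were 2-fold apart and the median was -0.01. Ece1, the enzyme that cuts endothelin precursors to their active form, stood at 412 and 416 CPM (fold 1.01, 0.977 to 1.04).

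Further pigment cell genes were near the limit of detection. Of the melanosome enzyme and structure list 10 genes are not members, and 3 of these were expressed, with a median of -0.13. They were Cd63 (fold 0.911, 0.862 to 0.963), Atp7a (1.1, 0.955 to 1.28) and Tpcn2 (0.787, 0.643 to 0.963), which many cell types express. The pigment transporter genes Oca2 (3 and 9 reads), Slc24a5 (3 and 8) and Slc45a2 (1 and 4) had more reads in K5.Pp6fl/fl, each with an interval that included 1. The protease gene Bace2 had 6 and 14 reads, also with an interval that included 1. Slc24a4 had 3 reads in each library, Trpm1 had 1 and Gpr143 had 0. Oca2, Slc24a5, Slc45a2, Trpm1 and Gpr143 summed to 8 and 22 reads, a fold of 3.06 (1.31 to 7.95). That sum was not planned, rests on few reads and leaves out Bace2 and Slc24a4.

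Of the 17 genes of melanosome assembly and transport all were expressed, with a median of -0.03. Of their intervals 6 lay above 1 and 4 below, against 16.6% and 17.4% of all expressed genes. Mlph, which links the melanosome to its myosin motor, had 13 and 34 reads, a fold of 2.91 (1.5 to 6.01). It was the 1 gene past the 2-fold rule, by which 0.811% of all expressed genes and 2.26% of those at 1 to 10 CPM were higher. The motor itself, Myo5a, and the GTPase Rab27a of the same complex had folds of 1.11 (1.07 to 1.15) and 1.43 (1.08 to 1.9).

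Of 11 transcription factor and lineage genes of melanocytes beside Mitf, 5 were expressed, 0 were 2-fold apart and the median was -0.07. Sox9 and Tfap2a, both abundant in keratinocytes, had folds of 0.949 (0.92 to 0.978) and 1.17 (1.09 to 1.26). Sox10 (7 and 8 reads) and Pax3 (4 and 4), which act upstream of Mitf in the melanocyte lineage, were at or under 0.46 CPM, and Irf4 and Bcl2a1b had 0 reads. Of 9 receptors and surface proteins beside Kit and Ednrb, 5 were expressed with a median of 0.00 and 0 were 2-fold apart. Met and Erbb3 had folds of 0.997 (0.951 to 1.04) and 1.04 (0.949 to 1.14). Mc1r, the receptor for melanocyte-stimulating hormone, had 2 reads and 0, and Frzb 0 in both.

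Most defining markers of other skin cell types had few or 0 reads. In the Schwann cell list, whose cells share Sox10 with melanocytes, 2 of 10 genes were expressed. Mbp (fold 1.12, 1.03 to 1.22) and Pmp22 (0.869, 0.756 to 0.998) led it, while Cdh19 and Gfra3 had 0 reads. Its summed level was 82.3 and 85.3 CPM. All 7 mast cell genes other than Kit had 0 reads, and the list's sum was that of Kit. Of 10 Langerhans and dendritic cell genes 8 had 0 reads, among them Cd207 and Ptprc, and only Cx3cr1 (1 and 2 reads) and Csf1r (1 and 1) were seen, a sum of 0.103 and 0.173 CPM. Of 8 T cell genes 6 had 0 reads, Cd3e among them, and the list's sum of 2.69 and 1.84 CPM came from Thy1 (52 and 31 reads) and, in K5.Pp6fl/fl, 1 read of Trdc.

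Fibroblast markers summed to 4.5 and 3.91 CPM, with Thy1 again first, then Vim (19 and 21 reads) and Pdgfra (7 and 10), and with Lum and Fap at 0. Endothelial markers other than Ednrb summed to 1.24 and 1.9 CPM, led by Pecam1 (11 and 17 reads), Tek (7 and 3) and Vwf (5 and 7), with Cldn5 and Emcn at 0. Merkel cell markers summed to 9.41 and 12.7 CPM, nearly all from the simple keratins Krt18 (fold 1.23, 0.948 to 1.59) and Krt8 (1.51, 1.08 to 2.11), which other epithelial cells also make, while Krt20, Chga and Isl1 had 0 reads and Atoh1, Sox2 and Piezo2 had 0 and 1. The share of pigment cells plated or surviving in each culture was not measured, and its part in the difference of the melanosome markers was not tested.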

How the data were processed

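RNA of 2 keratinocyte cultures was compared, 1 library a genotype, grouped by the genotype label. The deposited table gives estimated counts and FPKM per library, and the authors' log2 fold change, p-value and FDR per gene. The submitters' processing notes list RSEM, edgeR and mm8, with no role for any. Aligner and annotation were not given in the sources used here. By their values, the deposited estimated counts are reads multiplied by 1 constant per library: after division by it, 97.3% and 97.4% of values under 100 reads were whole within 0.01 reads. The design had assumed unscaled counts. Reads were rounded, and CPM used TMM-scaled totals (edgeR 4.0.16, R 4.3.3; DESeq2 1.42.0 as an alternative scaling). Symbols matched 47219 of 47719 gene IDs.

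Folds carry exact conditional binomial (Clopper-Pearson) intervals at 95%, and single counts exact Poisson intervals. The interval script was checked on simulated data. A count of 0 allows 3 reads. FPKM intervals rescale the Poisson bounds. Genes named beside the members are, in each of 16 lists, those past the 2-fold rule or else the 2 most abundant (3 for other cell types), plus markers without reads; others were chosen after their values were seen. A few genes that this rule names are not reported here. The members and lists were chosen with earlier results of these data known. Alternatives were other pseudocounts, floors, scalings, FPKM and sums without single markers. Coordinates are those of the RefSeq windows only.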

Additional observations from a re-analysis of the deposited data

How the results depend on the processing

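The pigment marker sum, with a log2 ratio of 0.98 after adding 0.5 CPM, was higher in K5.Pp6fl/fl under every alternative run on it. Its log2 ratio ran from 0.76 by FPKM, with 1 FPKM added, to 1.06. With nothing added its FPKM fold was 1.83. The sum crossed the 2-fold line with 0.1 CPM added (1.02), with none added (1.03), when scaled to Krt5 and Krt14 (1.06) and without Mlana (1.0). It did not with 2 CPM (0.86). The count of members 2-fold higher, 0 as reported, was 2 with 0.1 CPM or none added (Pmel and Dct), and 1 (Pmel) with library totals only, when scaled to Krt5 and Krt14, or with the deposited columns as they stand. The ratio of pigment marker reads to ligand reads had an interval above 1 without any 1 marker and against Kitl or Edn1 alone. The sum of Mitf, Kit and Ednrb turned from -0.07 to 0.01 when scaled to Krt5 and Krt14, and Kitl from 0.01 to -0.01 by FPKM. Scaling to the keratins, adding no pseudocount, the deposited columns and Mitf as reference were chosen after seeing the data. Over all genes the 2-fold counts of 100 higher and 24 lower became 173 and 57 with 0.1 CPM, 184 and 67 with none, 34 and 5 with 2 CPM, 49 and 4 at a floor of 5 CPM, and 232 and 140 by FPKM, where 1 FPKM was added, the floor was 1 FPKM and no interval was required. Of the genes in the lists that are not members 2 were 2-fold higher (Mlph and Tnf), and 1 with 2 CPM, at a floor of 5 CPM or by FPKM. No paired analysis was possible because each genotype has 1 library, and for the same reason no library could be left out. Depth limits Mlana, Kit and Ednrb, which stood on 0 to 8 reads.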

Other observations

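Of 16 measured genes that hold back pigment or help to pass it on, 10 were expressed, with a median log2 ratio of 0.20. Of their intervals 5 lay above 1 and 1 below, against 16.6% and 17.4% of all expressed genes. Tnf, an inflammatory cytokine that lowers melanin synthesis, had 62 and 164 reads, a fold of 2.94 (2.19 to 4.01). It was the 1 gene past the 2-fold rule, by which 0.811% of all expressed genes and 2.26% of those at 1 to 10 CPM were higher. The next genes were chosen after their values were seen. F2rl1, the protease-activated receptor through which keratinocytes take up melanosomes, stood at 93.8 and 91.1 CPM, a fold of 0.97 (0.907 to 1.04). Foxn1, a keratinocyte transcription factor that marks the cells to which melanocytes deliver pigment, had a fold of 1.28 (0.971 to 1.7). Dkk1, a Wnt inhibitor of palm and sole skin, had 0 reads in both libraries.

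Of 12 genes known to answer to Mitf outside pigment synthesis, 6 were expressed, 0 were 2-fold apart, and the median was 0.00. The most abundant were Hif1a, with a fold of 1.08 (1.05 to 1.11), and Met at 0.997. Hif1a stood at 488 and 528 CPM, against 7.34 and 15.0 CPM for the summed melanosome markers. Which cells gave the reads of these genes was not measured, so the median does not describe the pigment cells.

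Among the factors for melanocytes, the lowest and the highest log2 ratio, -0.60 and 0.69, belonged to genes outside the naming rule. The vasodilator peptide gene Adm had 3256 and 1925 reads, a fold of 0.658 (0.622 to 0.697), and Il1a 505 and 739 reads, a fold of 1.63 (1.45 to 1.83). Among the receptors and surface proteins Gpnmb, a relative of Pmel found in melanosomes and lysosomes, had 357 and 470 reads, a fold of 1.47 (1.27 to 1.69).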
